A study of Mus musculus with 4 samples.

Results

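Chemokines are small secreted proteins that attract leukocytes, and their receptors are 7-transmembrane proteins on the cells that respond. This report follows that gene family in mouse testicular organoids (TOs) and in mouse testes. Members were chosen by symbol: all genes whose names begin with Ccl, Cxcl, Ccr or Cxcr followed by a digit, together with Cx3cl1, Cx3cr1 and the atypical receptors (Ackr), and without Cxcl12, Cxcr4 and the Ccrl symbols. The rule found 63 of the 32285 annotated features, which carry 57 symbols and comprise 42 ligands, 17 receptors and 4 atypical receptors. TOs were made from dissociated testes of early postnatal ICR mice, which were aggregated in microwells, embedded in basement membrane extract and cultured at an air-liquid interface with serum replacement, FSH and testosterone. The comparison group was testes of 28-day-old mice. Each group had 2 single-cell libraries of unsorted cells, and 28 days is the TO age in the series' design and in the paper, while the series' dissociation protocol gives day 21. The TO age counts days of culture begun from early postnatal testes, so the groups were not matched by age since birth. TO replicates came from separate culture batches. The paper calls the testis libraries biological replicates, and the labels do not say whether they came from separate animals. The p-values therefore measure the spread between these libraries, which may be partly technical. A TO contains only the leukocytes carried over with the dissociated testes, and no circulation brings in others.

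CC and CXC chemokines are named for the spacing of their conserved cysteines, and each receptor recognizes a small set of ligands. Ccr2 and its ligands bring monocytes out of blood, Ccr1 binds several macrophage inflammatory proteins, Cxcr2 directs neutrophils, and Cx3cr1 marks resident macrophages and binds membrane-anchored Cx3cl1. Atypical receptors bind chemokines and remove them without the usual G-protein signal. The testis interstitium holds a resident macrophage population that lies beside Leydig cells.

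The libraries contained 74988295 to 119966959 UMIs (unique molecular identifiers, each standing for 1 captured transcript), and 8713 to 9867 cells per library were kept. Cells were grouped with the members left out of the clustering genes and named from marker genes, so every name below stands for marker-defined cells of that kind, such as macrophage-like cells. Median UMIs per kept cell were 5479.5 and 7561 in the TOs and 2549 and 3271 in the testes. Between 88 and 99 kept cells per library shared their barcode with another library. Spermatid markers moved with the condition in every somatic type: in macrophages their summed level was 2.02 and 3.36 CPM (counts per 1000000 UMIs) in the TOs and 2480 and 3216 CPM in the testes, with all 7 markers found in at least 10% of macrophages in testis replicate 1. The part of such carried-over RNA in the results below was not tested, except that genes with a level at least 5 times higher in all other cells than in a given type, in either condition, were left out of the tests of that type.

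Of the 63 members, 38 had at least 50 UMIs in the kept cells (26 ligands, 9 receptors and 3 atypical receptors), 15 had 1 to 49 UMIs, and 10 had no UMI in any library. Those with 1 to 49 UMIs were Ccr10, Ccr3, Ccl11, Cxcl5, 1 copy of Ccl21a, Cxcr3, Cxcl9, Ackr2, Ccr7, Cxcr2, Ccl20, Cxcl3, another copy of Ccl27a, Ccr8 and Cxcl15. No UMI was assigned to Ccl21b, Ccl21c, Ccl27b, Ccr1l1, Cxcr1 or the remaining copies of Ccl19, Ccl21a and Ccl27a. The Ccl19, Ccl21 and Ccl27 copies are near-identical paralogs, so the split of reads among them is uncertain. The most frequent member was Ccl27a (ENSMUSG00000073888), a skin-homing ligand of Ccr10, with 45525 of the family's 119930 UMIs. Ccl2, the main monocyte attractant, followed with 8609 UMIs, and Cxcl16, a transmembrane ligand of Cxcr6, with 7498.

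Several members lie in runs of neighboring genes. In GRCm38 coordinates, Ccl2, Ccl7, Ccl11, Ccl12, Ccl8 and Ccl1 span chr11:82035571-82305690, and Ccl5, Ccl9, Ccl6, Ccl3 and Ccl4 span chr11:83525778-83664683. A further run at chr5:90759360-90905938 holds Cxcl5, Cxcl3, Cxcl15, Cxcl1 and Cxcl2. Promoters of Cxcl2 and Ccl9 are printed here because they held matches to an NF-kB-type motif and their genes rose in TO macrophages, and that of Ccl3 as one that rose without a match. Each runs from 250 bases before to 50 bases after the gene start, is taken from RefSeq on GRCm38.p6, and has matches to GGGNNNNNCC on either strand in capitals.
Cxcl2 (chr5:90903649-90903948, plus strand): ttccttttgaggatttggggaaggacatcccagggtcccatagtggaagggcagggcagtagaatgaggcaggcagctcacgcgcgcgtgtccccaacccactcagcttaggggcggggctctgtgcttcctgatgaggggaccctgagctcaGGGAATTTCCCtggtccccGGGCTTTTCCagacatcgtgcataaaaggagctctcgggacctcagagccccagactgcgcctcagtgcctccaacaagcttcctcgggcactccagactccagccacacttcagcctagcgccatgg
Ccl9 (chr11:83578587-83578886, minus strand): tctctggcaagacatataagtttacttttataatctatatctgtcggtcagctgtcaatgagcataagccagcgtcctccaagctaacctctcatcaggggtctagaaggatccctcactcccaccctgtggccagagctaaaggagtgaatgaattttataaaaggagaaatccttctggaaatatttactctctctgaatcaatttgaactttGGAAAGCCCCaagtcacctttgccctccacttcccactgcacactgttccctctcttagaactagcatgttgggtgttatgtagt
Ccl3 (chr11:83649329-83649628, minus strand): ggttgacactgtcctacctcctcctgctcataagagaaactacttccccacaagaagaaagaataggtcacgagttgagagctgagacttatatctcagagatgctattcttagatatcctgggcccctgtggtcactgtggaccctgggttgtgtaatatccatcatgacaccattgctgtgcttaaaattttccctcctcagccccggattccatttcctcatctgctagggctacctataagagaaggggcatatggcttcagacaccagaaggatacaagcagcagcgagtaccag
The Cxcl2 promoter held 3 matches, starting at -97, -96 and -78 from the gene start, of which those at -97 and -96 overlap. Ccl9 had a match starting at -35, and Ccl3 had none in this window. Among all 32851 promoters of the table, 50.8% held the motif. Of the 10 members that rose in TO macrophages, described next, 6 had a promoter in the table and 2 of these held a match. Of the members that fell there, 2 had a promoter in the table and 1 of these, Ccl27a, held matches.

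Macrophages were the source of 11 ligands in both conditions. A source is the named type with the highest level in both libraries of a condition, a description and not a test. Unnamed clusters were not ranked. In TO replicate 2 the unnamed cluster led by Thbs1 and Spp1 held Ccl2 at 1223 CPM, above macrophages at 453 CPM. Of 23 members with a TO source and 27 with a testis source, all kept it at a finer clustering. When cells were assigned by marker score, the TO source of Ccl19, Ccl25 and Ccl17 and the testis source of Ccr9 changed, and with doublets not removed the TO source of Ackr3 and the testis source of Ccl1 changed. In TOs and in testes alike, macrophages were the source of Cxcl2, Ccl24, Cxcl16, Ccl2, Ccl7, Ccl12, Ccl8, Ccl9, Ccl6, Ccl3 and Ccl4, and of the receptors Cx3cr1, Ccr1 and Ccr2. Most Cxcl16 UMIs nevertheless lay in other cells, since macrophages held 11% and 20.3% of them in the TOs and 17.9% and 18.1% in the testes. The libraries contained 270 and 695 macrophages in the TOs and 232 and 148 in the testes, which was 2.75% and 7.98% of kept TO cells and 2.35% and 1.56% of kept testis cells. All 6 macrophage markers were found in at least 10% of these cells in every library. C1qa, a complement subunit made by macrophages, differed by -0.18 on the log2 scale (SE 0.26, edgeR's quasi-likelihood test with Benjamini-Hochberg adjustment, adjusted p = 0.668), while Lyz2, which encodes lysozyme, was higher in the TOs by 2.49 (SE 0.27, edgeR adjusted p = 1.01e-05).

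Between TO and testis macrophages, 19 members were tested, 10 rose in the TOs and 3 fell, at an adjusted p below 0.01 and a 2-fold change. Over all 9904 genes tested, 3% were called higher and 13.1% lower. The median log2 change was 1.72 over the tested members and 0.10 over all genes. The 10 that rose were ligands, and they were drawn from the first run of the chromosome 11 cluster (4 of 4 tested there), from the second run (4 of 5 tested), and from Cxcl2 and Cxcl16. No receptor was among them. With 2 libraries per group, an exact permutation test of a single gene cannot go below p = 0.33, so the calls rest on edgeR's model, which shares the spread across genes.

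The monocyte-attracting ligands of Ccr2 rose together in TO macrophages. Ccl2 reached 1219 CPM in TO replicate 1 and 453 CPM in TO replicate 2, against 150.3 CPM in testis replicate 1 and 122 CPM in testis replicate 2, and values below follow this order of replicates. The groups did not overlap, and the log2 change was 2.83 (SE 0.43, edgeR adjusted p = 0.000201). Ccl7, which also binds Ccr1 and Ccr3, stood at 668 and 174 CPM in the TOs and 125 and 81.7 CPM in the testes (log2 change 2.23, SE 0.51, edgeR adjusted p = 0.0052). TO replicate 2 was close to testis replicate 1 for this gene, and the call was lost under 7 of 16 alternative settings, among them the fit without TO replicate 1 (log2 change 0.99, adjusted p = 0.074) and DESeq2 (adjusted p = 0.11). Ccl12 reached 252 and 184.5 CPM in the TOs against 94.6 and 57.7 CPM in the testes (log2 change 1.72, SE 0.32, edgeR adjusted p = 0.0011), a call lost without TO replicate 1 (adjusted p = 0.0101). Ccl8, a ligand of several CC receptors including Ccr8 in mice, was at 452 and 183 CPM in the TOs and 84.9 and 36.8 CPM in the testes (log2 change 2.58, SE 0.46, edgeR adjusted p = 0.000826). In TO replicate 2, 1 cell held 180 of the 820 Ccl8 UMIs. For each of these genes TO replicate 1 was the higher of the TO libraries.

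The macrophage inflammatory proteins and their relatives, a group of Ccr1 ligands and close homologs, showed the same order of libraries. Ccl3 was at 934 and 503 CPM in the TOs and 159 and 57.7 CPM in the testes (log2 change 2.93, SE 0.45, edgeR adjusted p = 0.000228). Ccl4 had levels of 1467 and 537 CPM in the TOs and 104 and 59.3 CPM in the testes (log2 change 3.82, SE 0.48, edgeR adjusted p = 3.82e-05). Groups did not overlap for either gene. Ccl6, a Ccr1 ligand made by myeloid cells of rodents, was at 359.5 and 118.5 CPM in the TOs and 34.8 and 16 CPM in the testes (log2 change 3.41, SE 0.53, edgeR adjusted p = 0.000243). Ccl9, another rodent Ccr1 ligand, was at 159 and 95.5 CPM in the TOs and 22.3 and 19.2 CPM in the testes (log2 change 2.81, SE 0.37, edgeR adjusted p = 5.78e-05). The testis libraries held few UMIs of these last genes, 25 and 10 for Ccl6 and 16 and 12 for Ccl9. Ccl5, their neighbor and a T-cell and monocyte attractant, did not pass the test, with 2.02 and 17.9 CPM in the TOs and 9.74 and 0 CPM in the testes (log2 change 1.29, SE 1.01, edgeR adjusted p = 0.41).

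The CXC ligands Cxcl2 and Cxcl16 completed the group that rose. Cxcl2, a neutrophil attractant, was at 732 and 63.5 CPM in the TOs and 39 and 12.8 CPM in the testes (log2 change 4.12, SE 0.89, edgeR adjusted p = 0.00351). The TO replicates differed from each other more than TO replicate 2 differed from testis replicate 1, and without TO replicate 1 the log2 change was 1.51 (adjusted p = 0.044). Cxcl16, which exists as an adhesion molecule and a shed attractant, was the one member of the group with more in TO replicate 2, at 137 and 203.5 CPM in the TOs and 62.6 and 80.1 CPM in the testes (log2 change 1.47, SE 0.30, edgeR adjusted p = 0.00244). Its call was lost without TO replicate 2 (adjusted p = 0.023) and without testis replicate 1 (adjusted p = 0.013). Cxcl1, the neighbor of Cxcl2 and likewise a Cxcr2 ligand, was at 162 CPM in TO replicate 1 and 4.25 CPM in TO replicate 2, and had a single UMI in each testis library. Its pooled ratio was 35.5 (95% counting interval 9.75 to 294), and most of it came from TO replicate 1. Cxcl10, an interferon-inducible ligand of Cxcr3, missed the threshold at 37.8 and 8.5 CPM in the TOs against 4.17 and 0 CPM in the testes (log2 change 3.47, SE 1.02, edgeR adjusted p = 0.024).

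**Figure D1:**
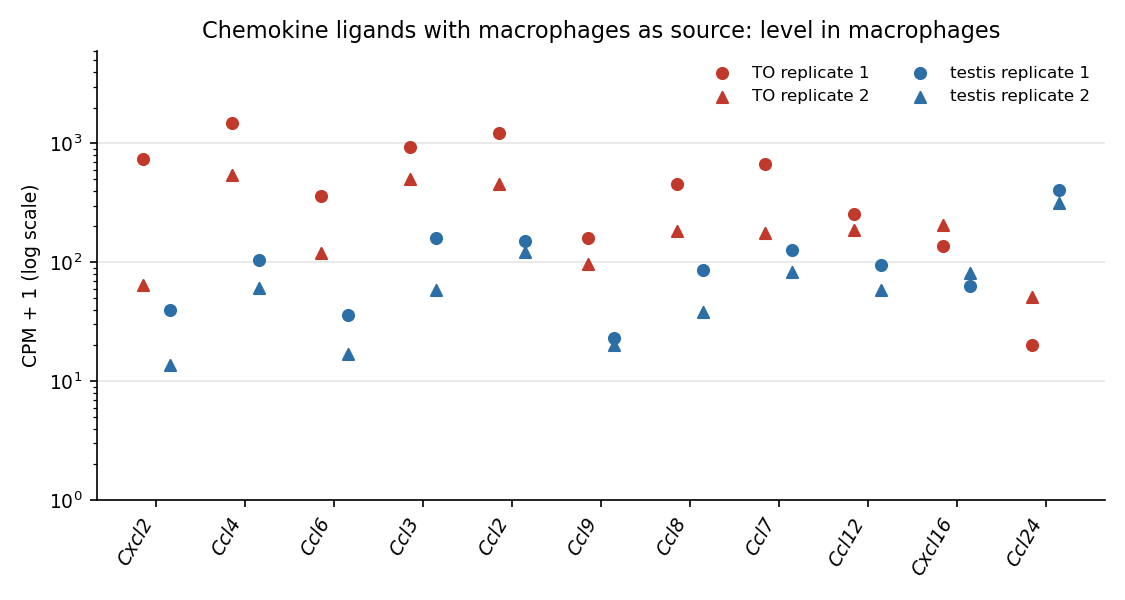
CPM + 1 on a log axis of the 11 ligands whose source is macrophages, 1 point per library (red, TO; blue, testis; circles, replicate 1; triangles, replicate 2). For Ccl4 the TO points stand at 1467 and 537 CPM and the testis points at 104 and 59.3 CPM, and Ccl24 at the right shows the opposite order, with 19.2 and 50.1 CPM in the TOs.

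Cxcl14, an epithelial and stromal chemokine, appeared in TO macrophages at 42.9 and 47.6 CPM (85 and 213 UMIs) and had no UMI in macrophages of either testis library. Against a floor of 3 UMIs over both testis libraries it was at least 20.7-fold higher. It was found in 17.4% and 17.1% of TO macrophages and in 0.397% and 0.402% of TO spermatocyte-like cells, while 0 of 232 and 0 of 148 testis macrophages had a UMI, which allows shares of up to 1.58% and 2.46% (Clopper-Pearson 95% interval). The TO macrophages were sequenced more deeply, and with cells thinned to 1500 UMIs each the shares were 5.58% and 5.76% in the TOs and 0% in both testis libraries. Since stromal cells hold Cxcl14 in the testis, the gene was left out of the main test of macrophages. With no gene left out it was called higher (edgeR adjusted p = 4.8e-05, 3.35% of 10805 genes called higher) and kept that call under 8 of 8 alternatives. Summed stromal markers in the same macrophages were 197 and 156 CPM in the TOs and 23.7 and 8.01 CPM in the testes, and their part in the Cxcl14 difference was not tested.

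Ccl24, Ccr2 and Ccl27a were the members that fell in TO macrophages. Ccl24, an eosinophil attractant that binds Ccr3, was at 19.2 and 50.1 CPM in the TOs and 401 and 315.5 CPM in the testes (log2 change -3.12, SE 0.39, edgeR adjusted p = 4.25e-05). It was detected in 10% and 12.95% of TO macrophages and in 54.7% and 53.4% of testis macrophages, against 0.125% of spermatocyte-like cells in testis replicate 1. Ccr2, the receptor of Ccl2, was at 7.56 and 17.45 CPM in the TOs and 69.6 and 94.5 CPM in the testes (log2 change -2.42, SE 0.39, edgeR adjusted p = 0.000368). Ccl27a was at 9.58 and 3.8 CPM in the TOs and 296 and 106 CPM in the testes (log2 change -4.84, SE 0.53, edgeR adjusted p = 1.18e-05). Spermatids held Ccl27a at 1008 and 275 CPM in the testes, and the testis macrophages carried spermatid markers, as given above.

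The fall of Ccr2 was lost without a small subset of testis macrophages. At a finer clustering, 47 and 39 testis macrophages but only 1 and 5 TO macrophages fell into a cluster rich in class II antigen-presentation genes, in which H2-Aa stood at 3325 and 4609 CPM in the testes against 30.9 and 195 CPM in the other testis macrophages. Ccr2 was at 329 and 534 CPM in the class II cluster and at 26 and 15.1 CPM in the other testis macrophages. Without that cluster, a split chosen after the data were seen, the Ccr2 log2 change was -0.48 (edgeR adjusted p = 0.588), and with cells of at least 3000 UMIs only, likewise chosen afterwards, the adjusted p was 0.033. Ccl4 in the testis was also concentrated there, at 609 and 262 CPM against 19.5 and 22.7 CPM in the other macrophages. Its log2 change of 3.82 became 5.79 without that cluster, and that of Cxcl2 went from 4.12 to 5.47. Over all alternatives the Ccl4 log2 change ran from 2.95, without TO replicate 1, to that value. Ccl3 followed with 416 and 83.8 CPM in the cluster against 115 and 52.9 CPM outside it. Ccl24 had the reverse distribution, with no UMI in the class II cluster and 468 and 372.5 CPM in the other testis macrophages. Markers of other leukocytes also differed between the groups of macrophages. Summed monocyte markers (4 genes) were 14.6 and 9.84 CPM in the TOs and 54.3 and 30.4 CPM in the testes, with Ly6c2 and Chil3 at 0 in every library. Dendritic-cell markers (5 genes) were 6.56 and 6.26 CPM against 29.2 and 14.4 CPM, with Clec9a at 0 in every library. T and NK markers (5 genes) were 0 and 0.447 CPM against 19.5 and 6.41 CPM, and B-cell markers (3 genes) 1.01 and 4.7 CPM against 18.1 and 8.01 CPM. Neutrophil markers (4 genes) were higher in the TOs, at 22.7 and 36.9 CPM against 6.96 and 14.4 CPM, with S100a9 and Retnlg at 0 in every library, and the 4 mast-cell markers had no UMI. The part of these cells in the results was not tested. Summed Sertoli markers in macrophages were 297 and 114 CPM in the TOs and 47.3 and 43.3 CPM in the testes, and summed Leydig markers 217 and 55.5 CPM against 37.6 and 51.3 CPM. The calls of Ccl2, Ccl3, Ccl4, Ccl6, Ccl8, Ccl9, Ccl24 and Ccl27a in macrophages were kept under all alternatives in which the gene was tested, including the fit without this cluster.

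Shares of macrophages with a UMI moved in the same direction as the levels. Ccl2 was detected in 70.4% and 48.2% of TO macrophages and in 26.7% and 25% of testis macrophages. Median depth differed, at 6326.5 and 5981 UMIs per TO macrophage and 3069.5 and 4283.5 UMIs per testis macrophage, so each cell was also thinned to 1500 UMIs, which left out 1 macrophage of each TO library. The thinned shares for Ccl2 were 51.3% and 29% in the TOs and 16.4% and 11.5% in the testes. Ccl3 gave thinned shares of 49.8% and 32.3% in the TOs and 15.95% and 8.11% in the testes. For Ccl4 they were 46.1% and 25.5% against 9.48% and 6.08%. In spermatocyte-like cells, which should lack these genes, Ccl2 was found in 1.98% and 1.61% of TO cells at median depths of 5656.5 and 8841 UMIs, and Ccl4 in 1.98% and 1.2%. In the testes neither gene had a UMI in 803 and 967 spermatocyte-like cells of median depth 3298 and 3746 UMIs, which allows shares of up to 0.458% and 0.381%. Levels were uneven among positive cells: the 10% of macrophages with the most Ccl2 held 45.6% and 61.3% of its UMIs in the TOs and 61.1% and 61.8% in the testes, and single TO cells held up to 158 Ccl2 UMIs against 5 in the testes.

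Of the receptors tested in macrophages, Ccr2 alone was called. Cx3cr1, the fractalkine receptor, was at 279.9 and 539 CPM in the TOs and 277 and 453 CPM in the testes (log2 change 0.38, SE 0.36, edgeR adjusted p = 0.499). The groups overlapped, with the replicates of each group further apart than the group means. Ccr1 was at 14.1 and 6.04 CPM in the TOs and 19.5 and 30.4 CPM in the testes (log2 change -1.17, SE 0.50, edgeR adjusted p = 0.119). Neither Cx3cr1 nor Ccr1 passed the test. Macrophages held 71.6% and 91.8% of all UMIs of conventional receptors in the TOs and 18% and 23.7% in the testes, where spermatids held 58.9% and 55.4%. Cxcr2, which Cxcl1 and Cxcl2 engage, had 9 UMIs in all, Cxcr3 had 28, and Ccr3, the Ccl24 receptor, had 49. These 3 receptors did not reach the low-count filter of the macrophage test.

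**Figure D2:**
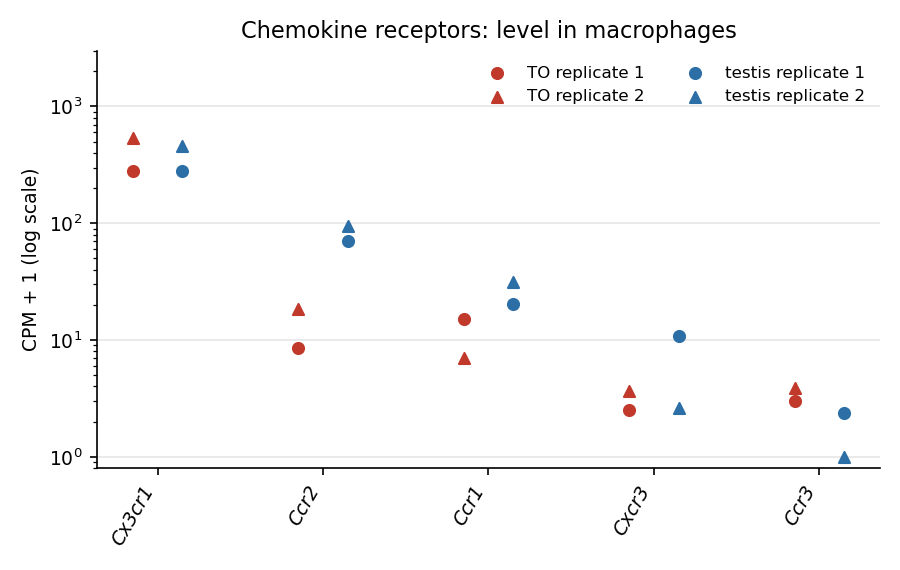
CPM + 1 on a log axis of the receptors Cx3cr1, Ccr2, Ccr1, Cxcr3 and Ccr3 in macrophages, 1 point per library (red, TO; blue, testis; circles, replicate 1; triangles, replicate 2). Cx3cr1 points of the groups overlap, whereas Ccr2 lies at 7.56 and 17.45 CPM in the TOs and 69.6 and 94.5 CPM in the testes; Cxcr3 and Ccr3 rest on few UMIs.

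Ccl2 UMIs were also found outside macrophages in the TOs. Stromal cells held 468 and 1229 Ccl2 UMIs in the TOs, or 39 and 54.8 CPM, and none in either testis library, a difference of at least 43.5-fold against the floor of 3 UMIs. The level that carried-over macrophage RNA would give, estimated from 5 macrophage genes, was 2.67 and 1.07 CPM. The transcripts sat in 3.59% and 4.54% of TO stromal cells, with up to 80 and 98 UMIs in 1 cell, and 0 of 591 stromal cells of testis replicate 1 had any. Whether doublets with macrophages that escaped removal hold some of these UMIs was not tested. With no gene left out, Ccl2 was called higher in TO stromal cells (edgeR adjusted p = 0.00119), a call kept under 7 of 7 alternatives. In Leydig cells, the testosterone-producing cells of the interstitium, Ccl2 was at 25.35 and 19.5 CPM in the TOs and 1.11 and 0 CPM in the testes (log2 change 5.20, SE 0.68, edgeR adjusted p = 0.00565). It was the only 1 of 8 members tested in Leydig cells to be called, where 1.01% of 12226 genes were called higher and 2.16% lower, and the call was lost with no upper limits on cells (adjusted p = 0.014) and with the replicate block (adjusted p = 0.016). Peritubular myoid cells, the contractile layer around the tubules, held 14.3 and 10.6 CPM in the TOs and none in the testes, at least 9.5-fold higher (with no gene left out, edgeR adjusted p = 0.00122, where 3.93% of 15006 genes were higher, and above 0.01 without testis replicate 1 or 2). In Sertoli cells 93 TO UMIs stood against 1 testis UMI, a ratio of 16.2 (95% counting interval 2.84 to 648). The unnamed cluster led by Thbs1 and Spp1, with 76 and 91 TO cells, held 3 and 1033 Ccl2 UMIs and is described with the flagged results below. Of all Ccl2 UMIs, macrophages held 67.1% and 42.1% in the TOs and 90% and 95% in the testes.

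Among stromal cells 13 members were tested, 2 rose and 2 fell, against 1.91% of all 14232 genes higher and 14.4% lower. The members' median log2 change was -0.42, and that of all genes 0.10. Cxcl10 rose, from 2.9 and 5.52 CPM in the testes to 34.4 and 26 CPM in the TOs (log2 change 2.95, SE 0.37, edgeR adjusted p = 0.00185). This interferon-inducible gene had no overlap between the groups. Cxcl16 rose from 28.3 and 33.1 CPM to 77.5 and 92.85 CPM (log2 change 1.58, SE 0.24, edgeR adjusted p = 0.00358). The Cxcl16 call was lost without testis replicate 1 (adjusted p = 0.019) and without testis replicate 2 (adjusted p = 0.011). Cxcr5, the B-cell follicle receptor, fell from 7.98 and 4.73 CPM to 0.334 and 0.0446 CPM, on 17 testis and 5 TO UMIs (log2 change -5.14, SE 0.94, edgeR adjusted p = 0.008), and the call was lost without TO replicate 1 (0.031), TO replicate 2 (0.099) or testis replicate 2 (0.019). Testis spermatids held Cxcr5 at 14 and 18.7 CPM, and stromal cells of the testes carried summed spermatid markers at 3199 and 3413 CPM. With no gene left out, Ccl7 joined Ccl2 as higher (7.92 and 6.1 CPM against none, at least 5.94-fold, edgeR adjusted p = 0.00952), where 1.82% of 15511 genes were higher, and that call was lost without testis replicate 1 (0.026) or 2 (0.021).

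Members in stromal cells that missed the threshold included the usual stromal chemokines. Cxcl14 was at 12.8 and 53.1 CPM in the TOs and 119 and 137 CPM in the testes (log2 change -1.81, SE 0.63, edgeR adjusted p = 0.0755). Cx3cl1 was at 43.9 and 30.2 CPM in the TOs and 10.9 and 2.37 CPM in the testes (log2 change 2.53, SE 0.54, edgeR adjusted p = 0.0146). Cxcl1 was at 96.5 and 32.1 CPM in the TOs and 30.5 and 4.73 CPM in the testes (log2 change 1.89, SE 0.78, edgeR adjusted p = 0.119). None of these 3 genes passed the test, and the nearest Cxcl1 libraries were at 32.1 CPM (TO replicate 2) and 30.5 CPM (testis replicate 1). Ccl19, the lymphoid-tissue ligand of Ccr7, was at 12.2 and 7.17 CPM in the TOs and 7.98 and 19.7 CPM in the testes (log2 change -0.42, SE 0.48, edgeR adjusted p = 0.545).

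In myoid cells 10 members were tested, and Cxcl16 rose while Ccl27a fell, where 3.89% of 13818 genes were higher and 16% lower. The median log2 change was 0.68 over these members and 0.12 over all genes. Cxcl16 was at 79.2 and 106.5 CPM in the TOs and 30.25 and 41.9 CPM in the testes (log2 change 1.37, SE 0.28, edgeR adjusted p = 0.00402), and the call was lost under 5 of 15 alternatives. Cx3cl1, whose source was myoid cells in both conditions, was at 130 and 122.5 CPM in the TOs and 61.3 and 76.7 CPM in the testes and stayed below the 2-fold threshold (log2 change 0.87, SE 0.23, edgeR adjusted p = 0.0155). Ccl19 was likewise highest in myoid cells in both conditions, at 16.2 and 8.3 CPM in the TOs and 14.7 and 39.9 CPM in the testes (log2 change -1.14, SE 0.48, edgeR adjusted p = 0.0979). Cxcl14 differed between the TO batches, at 6.93 and 60.3 CPM, against 6.21 and 1.99 CPM in the testes (log2 change 2.97, SE 1.12, edgeR adjusted p = 0.0687). Cxcl10 was at 20.3 and 6.51 CPM in the TOs and had no UMI in the testes, at least 10.1-fold higher. Ccl17, a Ccr4 ligand, was at 5.53 and 8.92 CPM in TO myoid cells and 5.43 and 2.99 CPM in the testes (edgeR adjusted p = 0.349).

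Sertoli cells, the nurse cells of the seminiferous epithelium, had 4 members tested, and Cxcl1 rose while Ccl27a fell (7.01% of 12430 genes higher, 14.5% lower). The median log2 change of the 4 members was 0.06, against 0.05 over all genes. Cxcl1 was at 17.3 and 16.4 CPM in the TOs and 3.5 and 5.28 CPM in the testes, on 9 and 6 testis UMIs (log2 change 2.12, SE 0.34, edgeR adjusted p = 0.00299). Its call was lost under 4 of 14 alternatives, 3 of which left out a single library. Cxcl16 had no UMI in testis Sertoli cells and was at 11.5 and 6.68 CPM in the TOs, at least 12.2-fold higher (with no gene left out, edgeR adjusted p = 0.00338, 7.76% of 14217 genes higher; 0.0157 without testis replicate 1). Cxcl2 at 3.81 and 9.545 CPM and Cxcl10 at 11.6 and 3.41 CPM likewise had no UMI in testis Sertoli cells, at least 7.16-fold and 10.8-fold higher, and neither passed the test. Ccl25, the thymic and gut ligand of Ccr9, was at 36.5 and 38 CPM in the TOs and 24.5 and 30.8 CPM in the testes (log2 change 0.56, SE 0.22, edgeR adjusted p = 0.0797). In testis replicate 2, 100 of the 144 Sertoli cells came from a cluster with no cell of any other library, so the testis replicates and the conditions were compared over different clusters. Without testis replicate 2 the Cxcl1 log2 change was 2.35 (edgeR adjusted p = 0.00383).

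Leydig cells kept other ligands at levels that did not differ past the threshold. Cxcl1 was at 58.5 and 17.3 CPM in the TOs and 43.25 and 11.8 CPM in the testes (log2 change 0.39, SE 0.67, edgeR adjusted p = 0.731). Replicate 1 exceeded replicate 2 in both conditions. Cx3cl1 was at 18.7 and 16.8 CPM in the TOs and 33.3 and 7.65 CPM in the testes (log2 change -0.27, SE 0.54, edgeR adjusted p = 0.776). Cxcl13, the B-cell attractant that binds Cxcr5, had Leydig cells as its TO source at 4.535 and 1.22 CPM, against 0 and 2.35 CPM in testis Leydig cells (log2 change 1.21, SE 1.14, edgeR adjusted p = 0.52). Cxcl16 ran against the other somatic types, with 11.8 and 8.98 CPM in the TOs and 24.4 and 24.7 CPM in the testes (with no gene left out, log2 change -1.32, SE 0.30, edgeR adjusted p = 0.018). Of the 1724 and 1586 TO Leydig cells, 286 and 307 came from a cluster with 5 cells in each testis library. That cluster showed 5 and 2 Leydig markers in the TO libraries. The part of this difference in composition in the Leydig results, including the Ccl2 call above, was not tested.

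**Figure D3:**
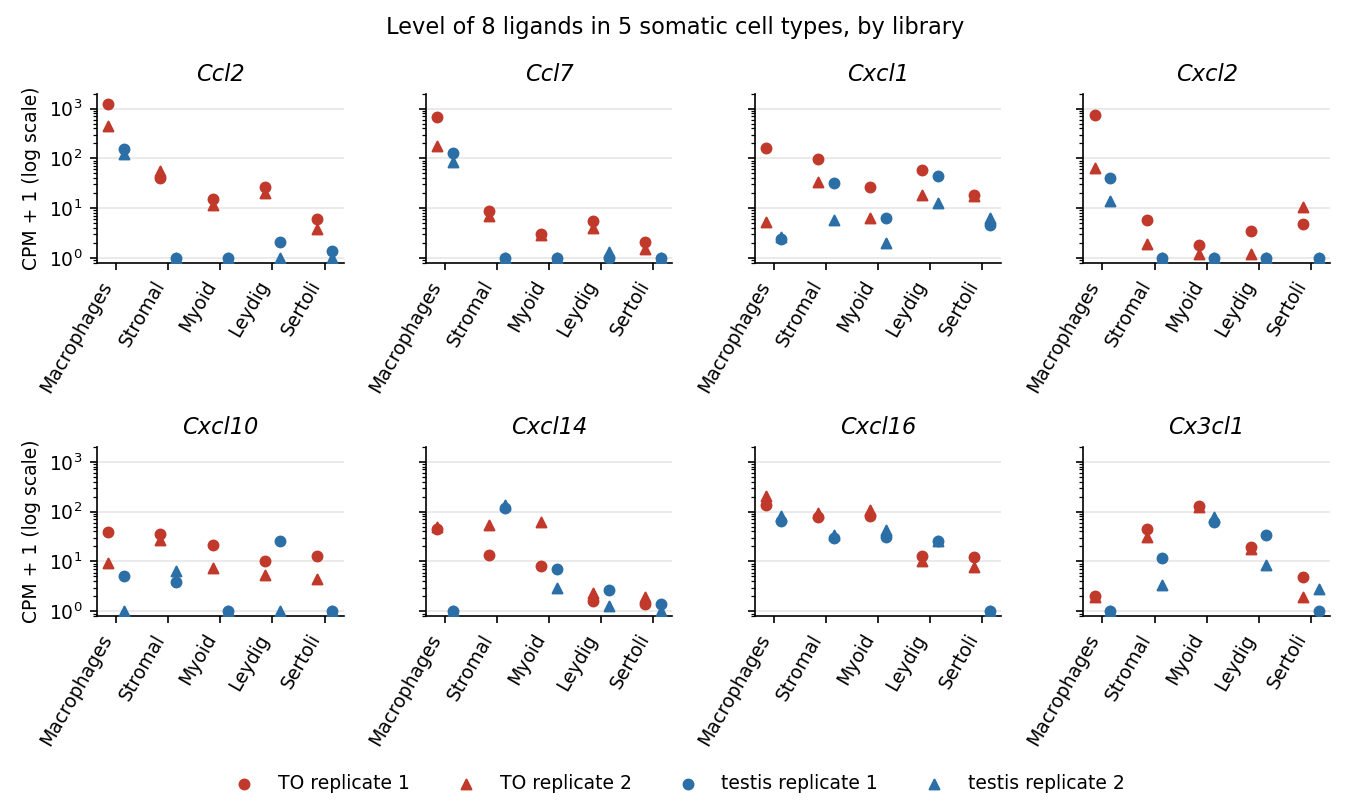
CPM + 1 on a log axis of 8 ligands in macrophages and the stromal, myoid, Leydig and Sertoli cells, 1 point per library (red, TO; blue, testis; circles, replicate 1; triangles, replicate 2). Ccl2 has TO points in every type and testis points at or near 0 CPM outside macrophages, and in stromal cells the TO points stand at 39 and 54.8 CPM.

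The change between conditions differed between macrophages and other types for some members, by an edgeR test of the difference itself with library as a block. No gene was left out of these tests for its level in other cells. They include Cxcl16 in Leydig cells and Ccl2 in stromal cells, which the main tests of those types left out. Between macrophages and Leydig cells 4 of 22 members passed an adjusted p of 0.05, where 9.81% of all genes did. Cxcl16 changed more in macrophages than in Leydig cells by 3.04 on the log2 scale (SE 0.36, edgeR adjusted p = 0.00039). Against Sertoli cells 4 of 22 members passed, and 14% of all genes, and against stromal cells 2 of 25 passed, and 9.99% of all genes. Ccl2 was called in the latter test, with a larger change in stromal cells, whose testis libraries had no Ccl2 UMI, so that the fitted size depends on edgeR's prior count.

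Germ cells were the source of some members, and spermatids held 74.6% and 66.6% of all ligand UMIs in the testes. Testis spermatids were the source of Ccl27a, Ccl1 and Ccl28 and of the receptors Cxcr5 and Ccr6. In the testes Cxcr5 was at 14 and 18.7 CPM in spermatids, Ccr6, the Ccl20 receptor, at 11.4 and 8.17 CPM, Ccl28, a mucosal ligand of Ccr10 and Ccr3, at 9.2 and 6.75 CPM, and Ccl1, a Ccr8 ligand, at 7.9 and 2.33 CPM. TO libraries held only 44 and 33 spermatid-like cells, too few UMIs for a comparison of these genes. Ccl17 and Ccl5 were seen in spermatids of testis replicate 2 (305 and 244 UMIs) and hardly in those of testis replicate 1 (7 and 5 UMIs). The testis replicates therefore did not agree on these genes.

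Ccl27a was lower in the TOs in every type in which it was called, namely macrophages, stromal, myoid and Sertoli cells, spermatogonia and spermatocytes. In TO cells named spermatids, 44 and 33 in number, it was at 421 and 414 CPM, against 1008 and 275 CPM in testis spermatids. Those TO cells carried few spermatid transcripts: the 7 spermatid markers summed to 613 and 1150 CPM there and to 9043 and 46720 CPM in testis spermatids, with Prm1 at 0 in both TO libraries and Tnp1 at 0 in TO replicate 1. In TO replicate 1 the spermatid sum was below that of the Sertoli markers (841 CPM) and the spermatocyte markers (795.5 CPM) in the same cells. Among spermatogonia-like cells 3 members were tested and Ccl27a fell, from 195 and 65.35 CPM to 10.2 and 4.36 CPM (log2 change -4.21, SE 0.50, edgeR adjusted p = 0.000124), where 0.156% of 12180 genes were higher and 8.69% lower. Among spermatocyte-like cells 5 were tested and Ccl27a fell, from 491 and 228 CPM to 12.2 and 10.1 CPM (log2 change -5.19, SE 0.45, edgeR adjusted p = 2.58e-05), where 14.1% of 11406 genes were higher and 22.5% lower. In stromal cells the levels were 28.7 and 11.8 CPM in the TOs and 389.8 and 140 CPM in the testes (log2 change -3.67, SE 0.62, edgeR adjusted p = 0.00599). In myoid cells they were 28.5 and 10.8 CPM in the TOs and 351 and 122 CPM in the testes (log2 change -3.62, SE 0.54, edgeR adjusted p = 0.000559), and in Sertoli cells 18.7 and 10.2 CPM against 241 and 74.8 CPM (log2 change -3.38, SE 0.54, edgeR adjusted p = 0.00275). The stromal and myoid calls were lost without testis replicate 1 (adjusted p = 0.01 and 0.018). In Leydig cells Ccl27a was at 29.9 and 14.6 CPM against 184 and 50 CPM and did not pass (edgeR adjusted p = 0.0429). Summed spermatid markers stood at 1214 to 4475 CPM in these types in the testes and at 0.647 to 13.1 CPM in the TOs, and their part in the Ccl27a differences was not tested.

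Ccl25 was found in germ cells and in somatic types of both conditions, and TO spermatocytes held 5.53% and 8.11% of its TO UMIs. Spermatocytes were its TO source at 73.3 and 74.1 CPM, against 39.4 and 56.5 CPM in the testes (log2 change 0.45, SE 0.28, edgeR adjusted p = 0.196). Spermatogonia-like cells held 59 and 41.1 CPM in the TOs and 39.5 and 39.6 CPM in the testes (log2 change 0.28, SE 0.22, edgeR adjusted p = 0.48). Its receptor Ccr9 was highest in testis spermatocytes, at 3.44 and 4.58 CPM, and was at 1.93 and 1.68 CPM in those of the TOs (log2 change -1.32, SE 0.64, edgeR adjusted p = 0.105). Cxcl17, a mucosal chemokine, also had spermatocytes as its source, at 18 and 6.31 CPM in the TOs and 6.65 and 3.125 CPM in the testes (log2 change 1.06, SE 0.57, edgeR adjusted p = 0.141). With no gene left out Cx3cr1 was lower in TO spermatocytes (3.21 and 2.53 CPM against 12.4 and 12.9 CPM, edgeR adjusted p = 0.00405), and Cxcr5 in TO spermatogonia (0.868 and 0.622 CPM against 4.74 and 4.17 CPM, edgeR adjusted p = 0.00985). In those fits 13.8% of genes were higher and 25.1% lower in spermatocytes, 0.771% higher and 12.3% lower in spermatogonia, and the Cx3cr1 call was lost without testis replicate 1 (0.018) or 2 (0.026), and the Cxcr5 call without TO replicate 1 (0.095), TO replicate 2 (0.13) or testis replicate 2 (0.053). The Cx3cr1 gene model overlaps 3 genes on the same strand, so its reads outside macrophages are uncertain. That of Ccr9 overlaps Gm17200 and Gm17020 on the same strand, and its testis spermatocyte levels rest on 15 and 22 UMIs.

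Atypical receptors marked non-leukocyte cells. Ackr3, which takes up Cxcl12, was highest in testis endothelial cells, at 216 and 174 CPM. It was next highest in Sertoli cells of testis replicate 1 (73.8 CPM) and in perivascular cells of testis replicate 2 (98.3 CPM). In the TOs no cluster kept the endothelial name, and Sertoli cells were the Ackr3 source at 36.3 and 51.7 CPM, against 73.8 and 50.2 CPM in testis Sertoli cells (log2 change -0.43, SE 0.28, edgeR adjusted p = 0.266). Ackr4, which scavenges Ccl19, Ccl21 and Ccl25, had stromal cells as its testis source at 11.6 and 11.8 CPM and was at 2.83 and 1.69 CPM in TO stromal cells (log2 change -2.30, SE 0.46, edgeR adjusted p = 0.012). Ackr1, a promiscuous chemokine-binding protein of venules and red cells, was at 1.64 and 1.65 CPM in TO Leydig cells and had no UMI in testis Leydig cells, at least 3.84-fold, without passing the test. Its gene model overlaps Cadm3 on the same strand, so its reads are uncertain. Ackr2, the inflammatory CC scavenger, had 19 UMIs in all.

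Setting sources beside receiving cells, the ligands that rose in TO macrophages have receptors with very different coverage. Ccl3 and its receptor Ccr1 had the same source, macrophages. Ccl2, Ccl7 and Ccl12 had macrophages as their source, and in TO stromal and Leydig cells Ccl2 and Ccl7 were found as well, while Ccl12 had 26 UMIs in TO stromal cells. Their receptor Ccr2 was at 7.56 and 17.45 CPM in TO macrophages. Cx3cl1 was highest in myoid cells and Cx3cr1 in macrophages in both conditions. Cxcl16 had its receptor Cxcr6 at 59 UMIs over all libraries, Ccl27a had Ccr10 at 49, and Ccl19 had Ccr7 at 13. The family's ligands without Ccl27a summed to 6663 and 2661 CPM in TO macrophages and 1318 and 871 CPM in testis macrophages, and macrophages held 49.3% and 42% of those ligand UMIs in the TOs and 25.7% and 17.9% in the testes. Stromal cells held 16.5% and 27.1% of them in the TOs and 8.47% and 9.73% in the testes. Spermatids held 27.7% and 38.3% of them in the testes, more than macrophages did, and 0.0336% and 0.0106% in the TOs. Shares of macrophages and stromal cells therefore also depend on how many spermatids a library holds. The remaining members above 50 UMIs were low in every named type. Ccl22, a Ccr4 ligand, reached 2.53 CPM at most, in spermatids of testis replicate 2, and its receptor Ccr4 reached 1.99 CPM, in myoid cells of testis replicate 2. Ccl26, an eotaxin, reached 1.69 CPM in endothelial cells of testis replicate 2, and Cxcr6 reached 1.39 CPM in macrophages of testis replicate 1. The Ccr4, Ccl26 and Cxcr6 maxima rest on few UMIs. In testis replicate 2, myoid cells held 3.125% of 64 Ccr4 UMIs and endothelial cells 4.17% of 24 Ccl26 UMIs. In testis replicate 1, macrophages held 9.09% of 11 Cxcr6 UMIs, and spermatids held 79.4% of 63 Ccr4 UMIs.

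**Figure D4:**
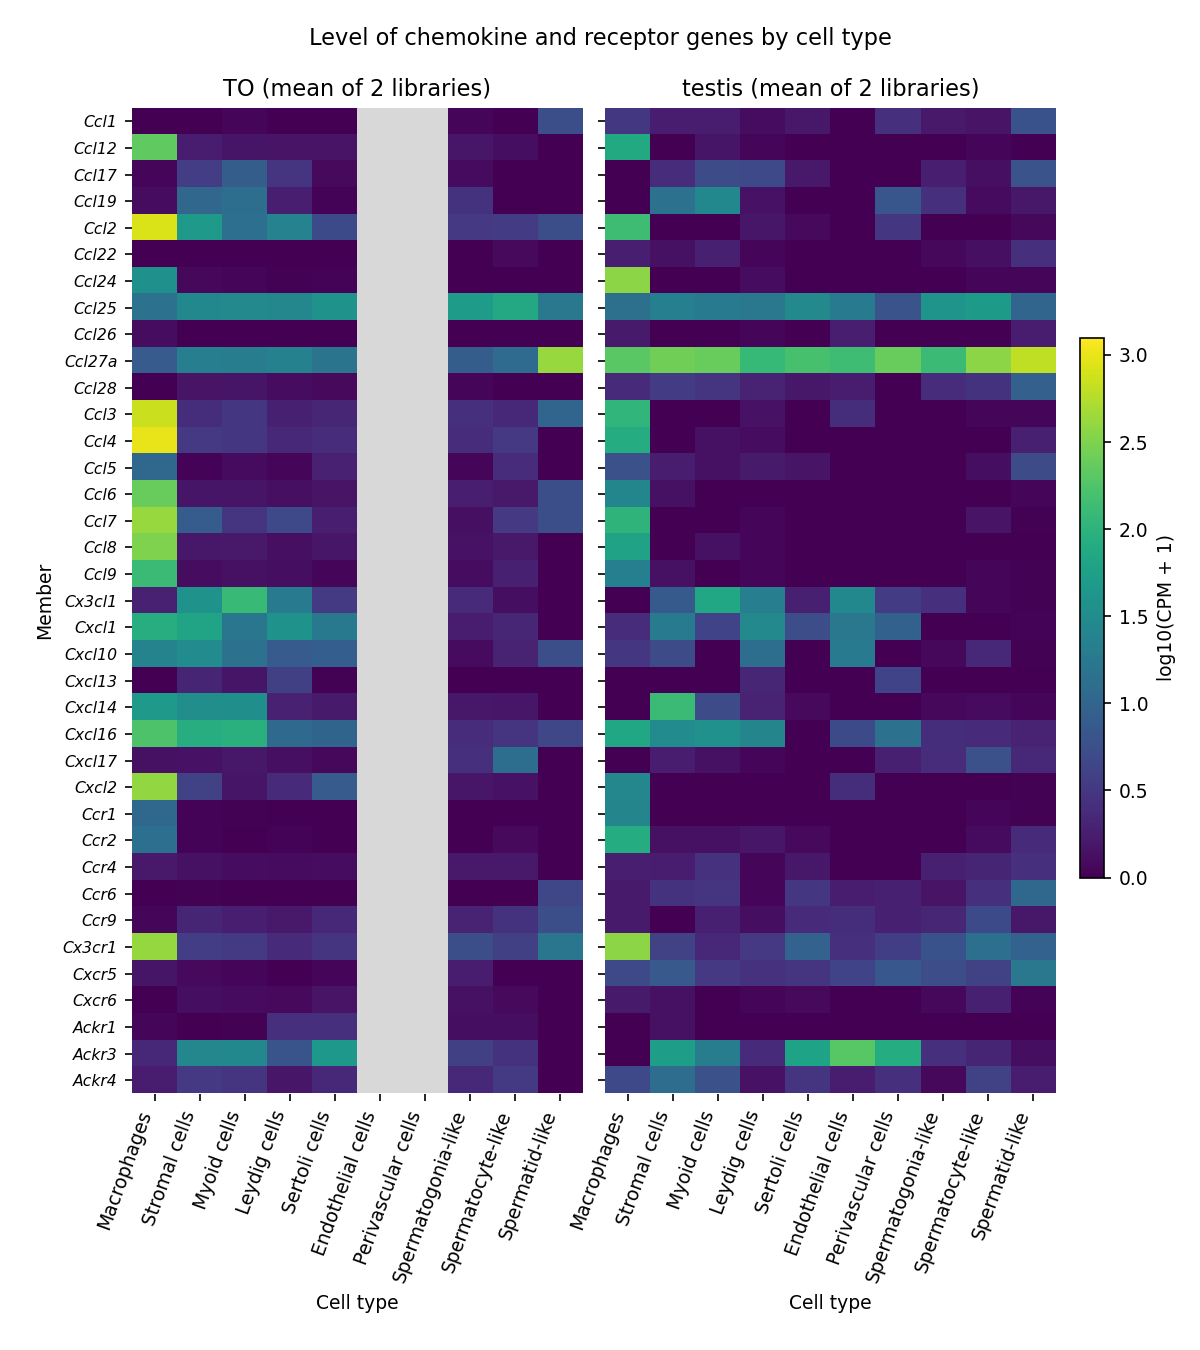
Color gives log10(CPM + 1), mean of the 2 libraries of a condition, for members with at least 50 UMIs (rows) in each named cell type (columns), TOs left and testes right; gray marks types whose name was withheld in the TOs. The macrophage column is bright at Ccl2, Ccl3, Ccl4, Ccl7, Ccl8 and Ccl12 in the TO panel and dimmer at these genes in the testis panel. Ccl27a is bright across the testis panel and in the few TO cells named spermatid-like.

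Genes of related pathways were taken from lists in macrophages, where the median log2 change over all genes tested was 0.10. Of 22 NF-kB and cytokine genes 17 were tested, and 4 rose: Cebpb, Il10, Nfkbia and Tnfaip3 (list median 1.17). Nfkbia, the NF-kB inhibitor that NF-kB itself induces, was at 527 and 309 CPM in the TOs and 121 and 114 CPM in the testes (log2 change 2.04, SE 0.33, edgeR adjusted p = 0.000355). Tnf was at 451 and 106 CPM against 102 and 92.9 CPM and did not pass (edgeR adjusted p = 0.026). Of 12 interferon-response genes 7 were tested and 3 fell, among them Gbp2 and Ifit3 (list median -1.97). Ifit3, an antiviral effector that interferon induces, was at 9.08 and 2.01 CPM in the TOs and 45.9 and 20.8 CPM in the testes (log2 change -2.59, SE 0.63, edgeR adjusted p = 0.00784). Of 21 receptor-signaling genes 20 were tested and Rac2 and Rgs1 rose (list median 0.50). Rgs1, which shortens chemokine receptor signaling, was at 599 and 209.6 CPM in the TOs and 36.2 and 72.1 CPM in the testes (log2 change 3.12, SE 0.49, edgeR adjusted p = 0.000291).

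The remaining lists in macrophages were smaller. Of 12 immediate early genes, which dissociation and handling of cells can induce, all 12 were tested and Junb and Zfp36 rose (list median 1.14). Of 9 related chemokine-system genes outside the family rule 4 were tested, Ccrl2 and Cxcr4 rose, and Pf4 fell (list median 0.67). Cxcr4, the Cxcl12 receptor, was at 47.4 and 104 CPM in the TOs and 30.6 and 17.6 CPM in the testes (log2 change 1.86, SE 0.43, edgeR adjusted p = 0.00584). Pf4, a platelet and macrophage chemokine, was at 258 and 221 CPM in the TOs and 936.5 and 1003 CPM in the testes (log2 change -1.81, SE 0.28, edgeR adjusted p = 0.000251). Of 4 class II genes H2-Ab1 fell (list median -1.53), and none of 5 resident-macrophage genes was called (list median -0.19). Outside macrophages, immediate early genes rose in Sertoli cells (8 of 9 tested, median 2.39 against 0.05 over all genes), myoid cells (6 of 12, 1.96 against 0.12) and stromal cells (3 of 12, 1.92 against 0.10), and none of 12 was called in Leydig cells (median 1.00 against 0.09). NF-kB and cytokine genes rose in 6 of 13 tested in myoid cells, 3 of 10 in Sertoli cells, 1 of 14 in stromal cells and none of 14 in Leydig cells. The part of handling-induced genes in the chemokine differences was not tested.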

How the data were processed

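Single-cell RNA sequencing libraries (10x Genomics 3' v3.1) of 2 TO and 2 testis samples were analyzed. The authors deposited UMI counts per gene and cell barcode, made with Cell Ranger 7.1.0 on mm10 according to the submitters' processing notes and not normalized. Barcodes were required to have between 1000 and 5000 detected genes, no more than 20000 UMIs and a mitochondrial share of 10% or less, after removal of the barcodes with the highest Scrublet scores (0.8% per 1000 barcodes, 1119 to 1715 per library). Python 3.11.15 with scanpy 1.11.5 was used for clustering (2000 variable genes without members, 30 principal components, Harmony integration, 20 neighbors, Leiden resolution 1). A cluster was named from fixed markers when at least 3 were found in 10% of its cells, in at least 1 library of that condition. TO clusters with fewer than 3 of the endothelial, perivascular or spermatid markers stayed unnamed, so the endothelial comparison was not fitted.

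Counts were summed per library and cell type and compared with the quasi-likelihood test of edgeR 4.0.16 in R 4.3.3 (TMM, filterByExpr), with Benjamini-Hochberg adjustment over all genes tested and calls at an adjusted p of 0.01 and a 2-fold change. Genes with a level in all other cells at least 5 times that in the type were left out, and a fit with no gene left out is given where named. The tests of differences between cell types left out no gene in this way. Fold changes against groups with no UMI are bounds from a floor of 3 UMIs over the group. Intervals and floors cover counting error only. Gene positions are those of GENCODE vM21 (GRCm38), in which all 63 member IDs were found. Members with at least 50 UMIs were named with their source, and those called in any type, or among the 10 highest in their source, with full values. The members and gene lists were chosen with earlier results of these data known. Alternatives were DESeq2 1.42.0, RLE scaling, no low-count filter, other thresholds, clustering resolution 2, assignment by marker score, no doublet removal, no upper limits, the replicate number as a block, and each library left out. The scripts were tested on simulated counts. Some genes that were tested are not reported here.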

Additional observations from a re-analysis of the deposited data

Results flagged for a closer look

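The results below are listed for 1 of these reasons. Either the change between TO and testis differed between macrophages and another cell type in a direct test (edgeR's quasi-likelihood test, Benjamini-Hochberg adjusted), or a signal appeared in cells outside the comparisons. Against Leydig, Sertoli and stromal cells, 4 of 22, 4 of 22 and 2 of 25 members passed. Over all genes tested, 9.81%, 14% and 9.99% passed, so a pass alone does not set members apart from other genes. The direct tests left out no gene for its level in other cells. The main tests of single types left out Cxcl16 in Leydig and Sertoli cells, Cx3cr1 in Sertoli cells and Ccl2 in stromal cells. They also left out Cxcl14 in macrophages and Leydig cells. The part of carried-over RNA in these differences was not tested.

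Compared with Leydig cells, the log2 change in macrophages was higher by 3.04 for Cxcl16 (SE 0.36, edgeR adjusted p = 0.00039), by 4.63 for Cxcl10 (SE 0.86, edgeR adjusted p = 0.00663) and by 11.54 for Cxcl14 (SE 2.03, edgeR adjusted p = 0.00514), and for Ccl27a the difference was -2.10 (SE 0.31, edgeR adjusted p = 0.00157). Testis macrophages had no Cxcl14 UMI, so its size depends on the prior count. For Cxcl10, testis Leydig cells held 88 UMIs in replicate 1 and none in replicate 2. Cxcl16 was higher in TO than in testis macrophages and lower in TO than in testis Leydig cells, and Cxcl10 had the same directions, with Leydig means of 6.77 CPM in the TOs and 12.2 CPM in the testes.

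Compared with Sertoli cells, the difference was 2.77 for Cxcl1 (SE 1.00, edgeR adjusted p = 0.0414), 2.31 for Cx3cr1 (SE 0.45, edgeR adjusted p = 1.2e-05), -6.78 for Cxcl16 (SE 1.48, edgeR adjusted p = 0.000115) and -1.53 for Ccl27a (SE 0.39, edgeR adjusted p = 0.00161). Testis Sertoli cells had no Cxcl16 UMI, and the macrophage Cxcl1 values were 162 and 4.25 CPM in the TOs. With genes of any count the Cxcl1 difference did not pass (edgeR adjusted p = 0.068). Cx3cr1 in Sertoli cells rested on 35 and 10 TO UMIs and 28 and 7 testis UMIs. Its gene model overlaps Gorasp1, Csrnp1 and Xirp1 on the same strand, so its reads there are uncertain. Compared with stromal cells, the difference was -7.99 for Ccl2 (SE 2.04, edgeR adjusted p = 0.0086) and 13.31 for Cxcl14 (SE 1.19, edgeR adjusted p = 1.13e-09). Each of these sizes rests on a group with no UMI and depends on the prior count.

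An unnamed TO cluster of 76 and 91 cells, led by Thbs1, Spp1, Tagln and Fn1, held Ccl2 at 5.38 CPM in TO replicate 1 and at 1223 CPM in TO replicate 2. In replicate 2 the 1033 UMIs came from 20 of 91 cells, with 250 in 1 cell, and in replicate 1 there were 3 UMIs in 3 of 76 cells. The same cluster held Cxcl14 at 382 and 202.5 CPM and Cx3cl1 at 108 and 54.5 CPM. It entered no comparison, since only 1 and 2 of the 5 perivascular markers that named the cluster in the testes were found in at least 10% of its TO cells. Those markers summed to 71.7 and 204 CPM there, below stromal markers at 7361 and 8936 CPM.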

How the results depend on the processing

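Of 32 log2 changes of called members, no direction was reversed over 420 alternative values, and 48 fell below the threshold. In macrophages the number of called members (13) stayed within 1.5 times under every alternative run, with 10 to 15 when single libraries were left out. In Sertoli cells (2 called) it was 0 with genes left out from 2 times, 1 with no upper limits, and 1 to 2 with single libraries left out. In Leydig cells (1 called) it was 2 at an adjusted p of 0.05 with no fold threshold, 2 with DESeq2, 0 with genes left out from 2 times, 0 with no upper limits, and 1 to 2 with single libraries left out. In stromal cells (4 called) it was 7 with DESeq2 and 2 to 6 with single libraries left out. In myoid cells (2 called) it was 4 with no gene left out, 1 at resolution 2, 1 with cells of at least 3000 UMIs, and 0 to 4 with single libraries left out. In spermatogonia-like cells (1 called) it was 2 at an adjusted p of 0.05 with no fold threshold, 2 with no gene left out and 0 with genes left out from 2 times. In spermatocyte-like cells (1 called) it was 2 with no gene left out and 2 with no upper limits. The difference between macrophages and Leydig cells was called for 4 members, and for 8 with all genes of any count. The cause of these shifts was not tested. The depth filter, the class II split and the withheld names were chosen after seeing the data. With 1 library left out, the lone library was assumed to vary like the others, and the differences between cell types were not refitted in this way.

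With the replicate number as a block, the counts were 0 in Leydig, 8 in stromal, 4 in myoid, 2 in spermatogonia-like and 14 in macrophage sums. The numbers do not pair the samples: deviations of same-numbered libraries correlated at 0.0348 to 0.172 over the cell types, with 2 pairs only.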
